A study of Rattus norvegicus with 4 samples.

Results

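The 9 genes described here belong to the skeletal muscle programme and were followed in the sciatic nerve, a tissue that does not form muscle fibres. They were taken by name, 5 as regulators (Myod1, Myf5, Myf6, Myog and Mef2c) and 4 as structural or metabolic muscle genes (Acta1, Ckm, Mb and Actn3), out of 23154 protein-coding rat genes. The mark measured was trimethylation of histone H3 at lysine 27 (H3K27me3). Of 129550 peaks, 40 named 1 of these genes, 16 at the regulators and 24 at the structural genes. Mef2c was named by no peak and counted as unmarked.

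The nerves came from male Sprague Dawley rats at postnatal day 42. All libraries came from the sham side, where only the skin was incised while the sciatic nerve of the other limb was cut, and the tissue was taken 1 day later. There were 2 H3K27me3 libraries and 2 libraries of input chromatin, but the peak list combines the H3K27me3 libraries and gives 1 value per peak. No spread between replicates can therefore be given, and no test was made. Whether the 2 libraries came from separate animals or pools is not given in the sources used here. Because whole nerve was used, a mark in fewer cells and a weaker mark in each cell cannot be told apart.

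H3K27me3 is placed by the Polycomb complex PRC2 on genes that a cell keeps silent, and broad domains of it typically lie over regulators of other lineages. Myod1 and Myf5 encode the basic helix-loop-helix factors that commit cells to the muscle lineage, Myog drives their differentiation, and Myf6 (also called MRF4) acts in both steps. Mef2c is a MADS-box partner of these factors and also works in heart, neurons and blood vessels. The factors bind E-boxes in the promoters and enhancers of contractile genes such as Acta1 and Ckm.

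Broad H3K27me3 domains lay over 1 regulator, Myod1, and 1 structural gene, Acta1. Ckm carried a chain of small peaks, 2 of them at its promoter. Myf5, Myf6, Myog, Mb and Actn3 had no promoter peak. A promoter peak is one whose edge came within 1000 bp of the transcription start site (TSS) of the gene it names. By this rule 1 of 5 regulators and 2 of 4 structural genes had one, against 17.2% of all protein-coding genes. In this and the other shares over all protein-coding genes, a gene absent from the authors' annotation counts as without a peak. The number of such genes is unknown. Of the 8 genes that any peak named, 3 had a promoter peak (37.5%), and of all protein-coding genes named by any peak it was 38.6%. A peak of any distance named 8 of 9 members and 44.5% of all protein-coding genes. The members as a set were thus near the level of other genes named in the list. Marked and unmarked genes occurred both among the regulators and among the structural genes.

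Other definitions moved these counts. A peak that contained the TSS was found at 1 regulator and 1 structural gene (6.15% of all protein-coding genes), and the same genes, Myod1 and Acta1, had a promoter peak of at least 2000 bp (6.85%) and one with a score of 9.9 or more (12.6%). A reach of 5000 bp took in Myf5, Myf6 and Actn3, giving 3 of 5 regulators and 3 of 4 structural genes (27.7%). The authors' own promoter-TSS class, which goes by a peak's centre, held a peak of Ckm alone (8.27%), since the domains of Myod1 and Acta1 are centred inside the genes. A score at or above the median of 4.54 kept 1 regulator and 2 structural genes (14.7%).

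The sequences below show the start regions of 4 structural and regulatory members on both sides of this division, Acta1 with its domain, Ckm with its small peaks, and Myog and Mb with none. Each runs from 250 bases before to 50 bases after the start that RefSeq gives on the newer assembly GRCr8, written 5′ to 3′ with every CpG in capitals. The peak coordinates elsewhere in the text are on rn5, and a start on GRCr8 need not be the start used on rn5.
Acta1, chr19:68784145-68784444, minus strand: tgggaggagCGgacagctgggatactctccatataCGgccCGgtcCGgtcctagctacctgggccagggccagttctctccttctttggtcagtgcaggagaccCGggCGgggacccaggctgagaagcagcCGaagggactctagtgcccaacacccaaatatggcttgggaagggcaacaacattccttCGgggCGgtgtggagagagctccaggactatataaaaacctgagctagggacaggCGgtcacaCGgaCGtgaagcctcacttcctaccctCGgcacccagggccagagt
Ckm, chr1:88189211-88189510, plus strand: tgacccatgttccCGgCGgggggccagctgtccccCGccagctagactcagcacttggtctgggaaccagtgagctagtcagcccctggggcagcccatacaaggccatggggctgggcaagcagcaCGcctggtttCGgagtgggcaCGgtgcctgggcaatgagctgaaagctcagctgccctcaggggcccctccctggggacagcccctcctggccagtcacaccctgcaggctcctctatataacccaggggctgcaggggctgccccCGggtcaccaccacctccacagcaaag
Myog, chr13:48297226-48297525, plus strand: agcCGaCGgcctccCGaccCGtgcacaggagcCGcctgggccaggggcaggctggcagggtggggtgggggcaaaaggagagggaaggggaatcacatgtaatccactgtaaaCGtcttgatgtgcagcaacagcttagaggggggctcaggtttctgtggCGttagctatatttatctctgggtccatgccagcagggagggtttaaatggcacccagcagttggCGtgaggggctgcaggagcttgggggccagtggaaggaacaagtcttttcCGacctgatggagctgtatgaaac
Mb, chr7:110647693-110647992, minus strand: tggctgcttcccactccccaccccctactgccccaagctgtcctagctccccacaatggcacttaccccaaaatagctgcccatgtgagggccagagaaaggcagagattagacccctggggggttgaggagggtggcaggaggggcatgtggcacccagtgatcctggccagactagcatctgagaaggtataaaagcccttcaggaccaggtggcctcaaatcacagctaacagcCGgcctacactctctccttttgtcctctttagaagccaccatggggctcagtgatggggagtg
The Acta1 window held 13 CpG, Ckm 7, Myog 9 and Mb 1.

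Of the 4 regulators that peaks named, Myod1 alone had a domain over its start. The domain (rn5, chromosome 1, 103479523 to 103484944, 5421 bp) ran from 2081 bp upstream of the TSS to 3340 bp downstream, and its centre lay in exon 1 of 3. Its score, the authors' value without a stated scale, was 192.7. If each step of the score grid (0.206271) is 1 sequenced tag, which is an assumption, the 95% counting interval was 180 to 205. It ranked 636 by score and 473 by width among the 3978 protein-coding genes with a promoter peak, which had medians of 40.8 and 1362 bp.

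Around the Myod1 domain lay smaller peaks on both sides. Those between 2360 and 6275 bp upstream had widths of 150 to 461 bp and scores of 3.30, 9.49 and 3.51. The downstream ones, from 3819 to 6451 bp, scored 7.63, 4.33 and 3.09. A separate group lay 26896 to 30056 bp upstream, with peaks of 1012 bp (score 43.9, 38.2 to 50.2), 893 bp (26.8) and 150 bp (3.30). All named Myod1, which is thus marked at the gene and at a distal upstream site with nothing listed between 6275 and 26896 bp. Myod1 is known to be controlled by upstream enhancers, and whether this group overlaps one of them was not tested.

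The domain at Myod1 was not an isolated one. Kcnc1, which encodes a voltage-gated potassium channel of fast-firing neurons, starts 18085 bp further downstream and had peaks of 136.8 (3080 bp) and 104.6 (2986 bp). In all, 20 peaks covering 16759 bp lay within 50 kb of the Myod1 TSS. Of 9978 protein-coding genes whose rn5 start could be recovered from the deposited distances, 88.8% had fewer marked bases in that window, and the median was 3749 bp. A start can be recovered only for a gene that a peak names. Genes named by no peak are therefore outside this and the later comparisons with recovered starts.

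Myf5 and Myf6 lie side by side, with starts 8726 bp apart on the minus strand of chromosome 7. Neither start was near a domain. Myf6 had a peak of 641 bp (49749243 to 49749884, score 11.3, counting interval 8.55 to 14.8) that began 1514 bp downstream of its TSS and was centred at its transcription end. Its other peak, 39896 bp upstream in intron 41 of a gene beyond it, scored 2.68 with the smallest width of 150 bp. Myf5 was named by 1 peak alone, of 188 bp with a score of 3.71 (2.20 to 5.87), centred 3483 bp upstream of its TSS. Together the locus had 3 peaks within 50 kb of either start, 979 marked bp in all. Of genes with a recovered start, which are all named by a peak, 22.8% had fewer.

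With 1 peak, the strand of Myf5 was settled from the distances. On the plus strand its start would lie 75 bp from the centre of the Myf6 peak, and that peak would then have named Myf5 instead of Myf6 at 1835 bp. The minus strand, which the RefSeq table gives for both genes, leaves the deposited assignment intact. With these starts no listed peak covered either one, the nearest edges of any peak being 3389 bp from Myf5 and 1514 bp from Myf6. The Myf5 start itself rests on 1 peak.

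Myog had 3 peaks, and none reached its promoter. The closest, 150 bp wide with a score of 3.30 (1.89 to 5.36), ended 6104 bp upstream of the TSS, and another of 150 bp at 8980 bp upstream scored 3.09. The highest (17.7, 14.2 to 21.9, 531 bp) was centred 11363 bp downstream in intron 27 of 28 of another gene's transcript. Its neighbour Adora1, an adenosine receptor gene expressed in neurons, starts 51605 bp away and had peaks of up to 121.1. Within 10 kb of its TSS, Myog had 300 marked bp, against 6816 bp at Myod1.

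Mef2c was named by no peak, and such a gene cannot be told from one absent from the authors' annotation. In gene order it lies between Lysmd3 and the microRNA genes Mir3597-2 and Mir9-2, whose recovered starts on chromosome 2 span 2341 kb. That interval held 30 peaks, of which 21 named Mir9-2 and 9 named Cetn3. The interval included 2 domains at or upstream of Mir9-2 (21595 bp, score 1606, and 12628 bp, score 830.9). Its other 28 peaks had widths of 150 to 838 bp and scores of 2.89 to 16.1. The place of Mef2c on rn5 was not used here, so none of these peaks was assigned to it, and it is not shown to lack the mark.

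**Figure D1:**
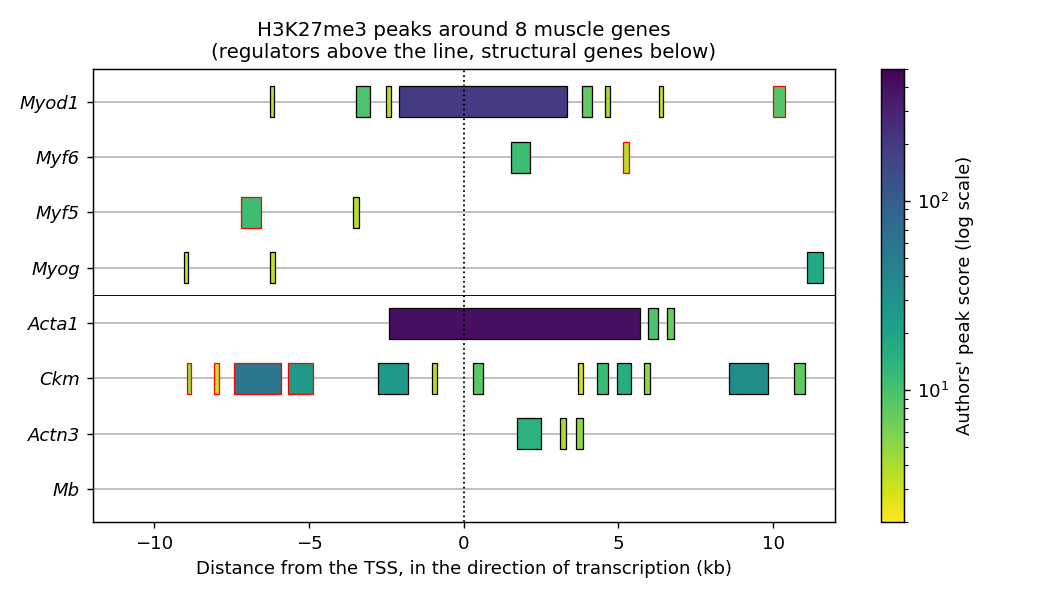
Peaks within 12 kb of the TSS of the 8 members with a recovered rn5 start, drawn to scale along the direction of transcription (kb), with regulators above the line and structural genes below. Colour gives the authors' peak score on a log scale, black outlines mark peaks that name the gene shown and red outlines those that name a neighbour. Domains cover the start of Myod1 (score 192.7) and Acta1 (403.1), Ckm has a chain of small peaks, and Mb has none in the window.

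Among the structural genes, Acta1 carried the broadest and highest-scoring peak of all members. Acta1 encodes skeletal alpha-actin, the thin filament protein of muscle fibres. Its domain (chromosome 19, 67387206 to 67395313, 8107 bp) ran from 2402 bp upstream of the TSS to 5705 bp downstream and was centred in intron 3 of 6. The score was 403.1, with a counting interval of 385 to 421. Such an interval covers counting alone and no spread between replicates, so the difference from Myod1 was not tested. By score it ranked 252 of 3978 and by width 249. Score per kb was 49.7 at Acta1 and 35.5 at Myod1, so the higher score came with greater width and a higher score per kb. As the score has no stated scale, a difference in signal density is not shown.

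The other peaks that named Acta1 were small. Peaks of 328 and 218 bp began 5957 and 6567 bp downstream of the TSS, with scores of 9.49 and 7.01, both centred in LTR elements. A pair of 150 bp peaks with scores of 3.09 and 2.68 followed at 16720 and 21606 bp. No peak was listed upstream of the domain within 60 kb of the TSS. On the downstream side lay peaks that named Ccsap, whose start is 49439 bp away, from 25396 bp onward and with scores of up to 58.2. Within 50 kb of the Acta1 TSS there were 17 peaks covering 13577 bp, and 84.6% of genes with a recovered start had fewer marked bases. The other actin genes differed from it. Acta2, the smooth muscle actin, had its nearest peak edge at 1452 bp, and Actc1, the cardiac actin, at 2830 bp. Actg1, a cytoplasmic actin, had its nearest edge at 15797 bp, and no peak named Actb or Actg2. Actin genes encode closely similar proteins, and how reads that fit several places in the genome were treated is not stated.

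Ckm, the muscle creatine kinase that buffers ATP, had 9 peaks spread over the gene and no domain. At the promoter lay a peak of 150 bp (81586833 to 81586983, score 3.51, counting interval 2.04 to 5.61), centred 949 bp upstream in the authors' promoter-TSS class. A peak of 328 bp (score 8.46, 6.07 to 11.5) was centred 457 bp downstream in intron 1 of 7, in a simple repeat. Neither contained the TSS, which was 293 bp from the nearest edge. By score the promoter of Ckm ranked 3008 of 3978.

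The larger Ckm peaks lay away from the start. One of 970 bp ended 1789 bp upstream (score 26.0), and one of 1258 bp, centred 9205 bp downstream in intron 7, scored 35.1 (30.0 to 40.8), the highest at this gene. Inside the gene, peaks in introns 2, 3 and 4 scored 2.89, 11.6, 15.9 and 4.95, and the peak at the transcription end scored 7.84. Klc3, a kinesin light chain gene whose start lies 6052 bp away, had promoter peaks of up to 56.1. With these, 32.7% of the 20 kb centred on the Ckm TSS was marked, close to the 34.1% at Myod1 and below the 43.3% at Acta1, although the summed score in the window was 197.9 against 232.9 and 419.6. When peaks within 5000 bp of each other were joined, 13 peaks of Ckm and Klc3 formed a stretch of 19989 bp with a summed score of 205.8.

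Actn3 and Mb had no promoter peak. Actn3 encodes the alpha-actinin of fast fibres, which anchors thin filaments at the Z-disc. It had 3 peaks, all in intron 1 of 20, with scores of 14.6 (11.4 to 18.5), 4.13 and 5.16, and the closest edge lay 1718 bp downstream of the TSS. The widest measured 790 bp and was centred in a SINE repeat. Further off, Ccdc87 had a peak of 75.3. Mb encodes myoglobin, the oxygen store of muscle. Its closest peak (196 bp, score 4.54) lay 27489 bp downstream of the TSS. Of genes with a recovered start, which are all named by a peak, 88.5% had a peak at that distance or nearer. Its 7 peaks reached 32.2 in score at 56612 bp, all intergenic, and within 10 kb of its start no peak was listed.

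Ordered by the distance from the TSS to the nearest edge of any peak, the members ran from Myod1 and Acta1 (0 bp) through Ckm (293 bp), Myf6 (1514 bp), Actn3 (1718 bp), Myf5 (3389 bp) and Myog (6104 bp) to Mb (27489 bp). Mef2c, with no recovered start, is left out. The other regulators spanned 0 to 6104 bp and structural genes 0 to 27489 bp, so the groups overlapped. Across the 9978 genes with a recovered start, all of them named by a peak, the median was 2291 bp (quartiles 250 and 10448 bp). The start lay inside a peak in 14.2% of those genes, and it did in 2 of 8 members. It lay within 1000 bp of a peak in 39.6% of genes and 3 of 8 members, and within 5000 bp in 63.4% and 6 of 8. At the limit of 1000 bp, the last peak inside was the 150 bp peak of Ckm, with its edge at 874 bp, and the first outside was that of Myf6.

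**Figure D2:**
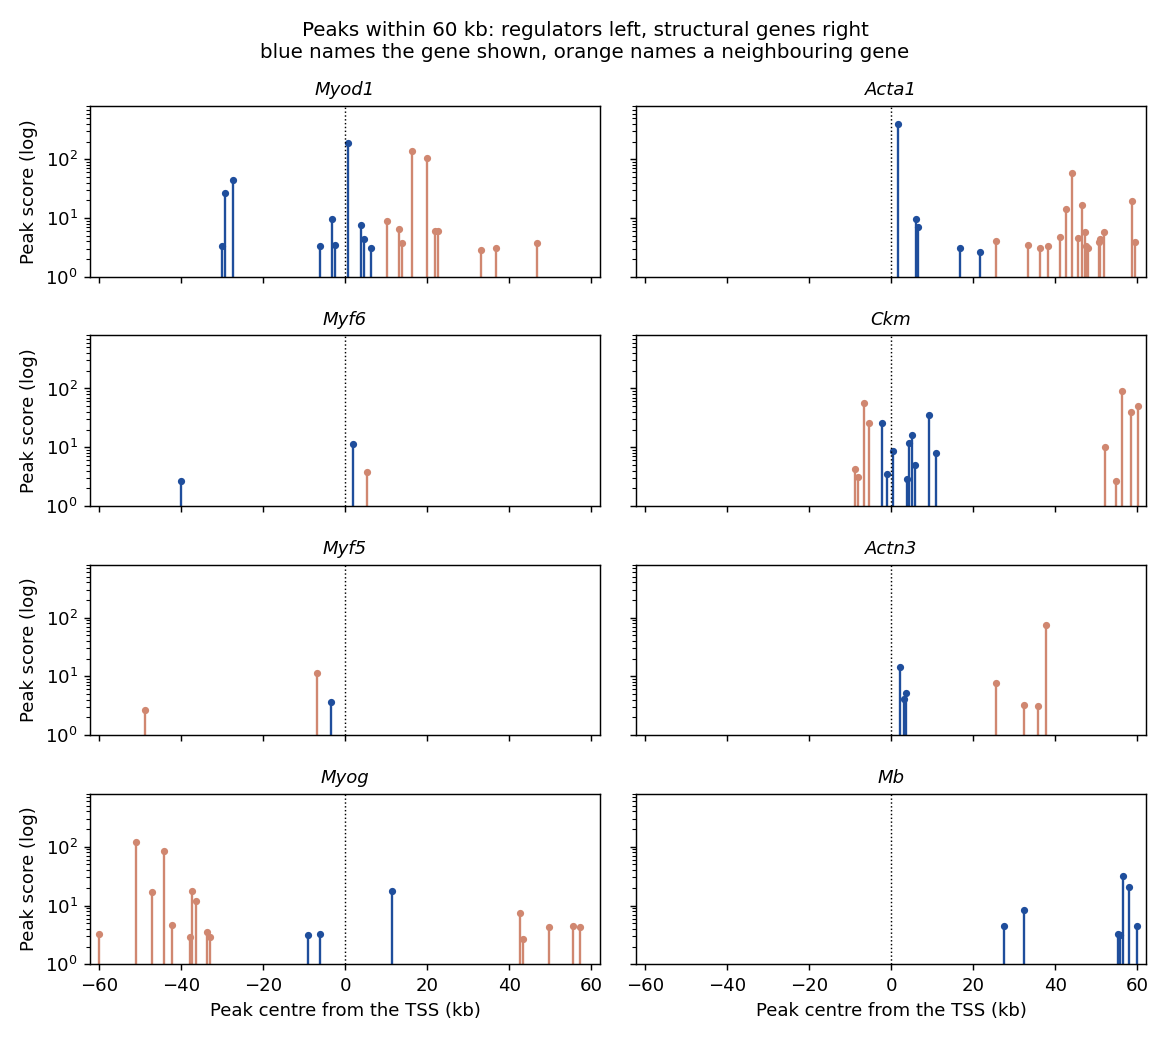
Authors' peak score (log scale) of every peak whose span comes within 60 kb of the TSS, plotted at the distance of its centre from the TSS (kb, positive downstream), with regulators in the left column and structural genes in the right. Blue stems name the gene shown and orange stems a neighbouring gene. The panels show the distal group about 27 to 30 kb upstream of Myod1 (up to 43.9), the Kcnc1 peaks downstream of it (up to 136.8), and few, low peaks at Myf5 and Myf6 (3 each, up to 11.3) and at Mb (7, up to 32.2, all over 27 kb downstream).

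The 40 peaks that named members were mostly small. Of them, 35 were under 1000 bp, 14 had the smallest width of 150 bp, and only those over Myod1 and Acta1 were over 2000 bp. These 2 domains held 60.7% of the summed score of the 40 peaks. Their median width was 241 bp and their median score 6.09, against 191 bp and 4.54 over all peaks, and 32.5% had a score of 9.9 or more, against 25.1% of all peaks.

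**Figure D3:**
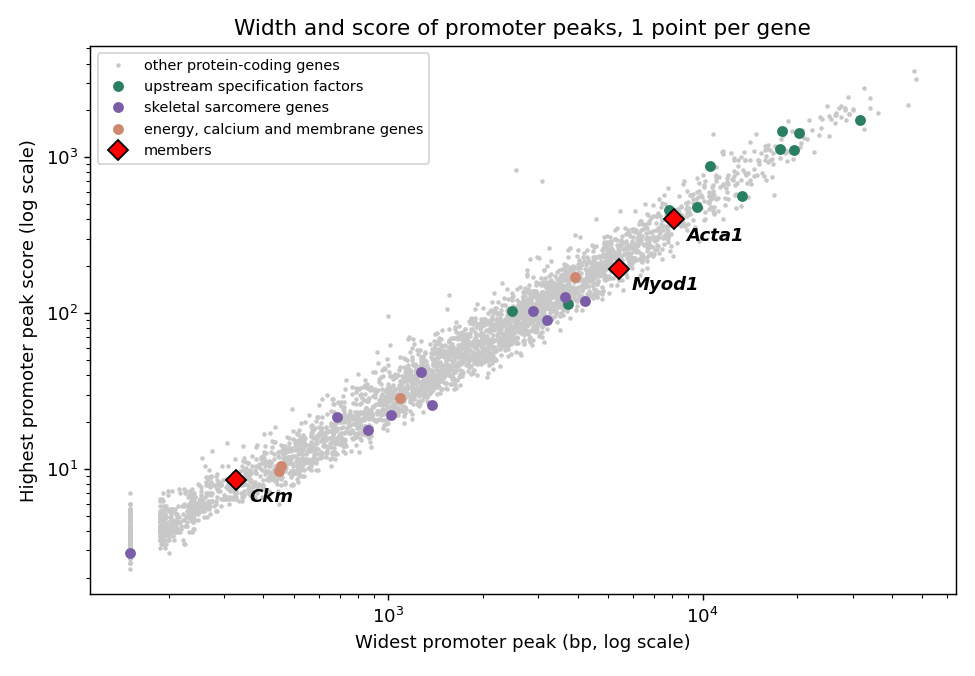
Widest promoter peak (bp) against highest promoter peak score, both on log scales, with 1 point per protein-coding gene that has a promoter peak (3978 genes). Red diamonds are the members Acta1, Myod1 and Ckm, green points upstream specification factors, purple points skeletal sarcomere genes and orange points energy, calcium and membrane genes. Specification factors such as Pax3 (1471) lie far above Acta1 (403.1), and Ckm (8.46) lies near the low end.

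CpG-rich promoters are the usual sites of Polycomb recruitment, and the members' start regions were compared on that measure. RefSeq windows of 300 bases were found for 7 members, Myf5, Myf6, Myog, Acta1, Ckm, Mb and Actn3. They held 2, 3, 9, 13, 7, 1 and 11 CpG, against a median of 12 over 19005 protein-coding genes, so 6 of 7 were below it. Acta1, with a broad domain, was the one above, with 13 against 12. Its ratio of observed to expected CpG was 0.477, below the median of 0.5495 over all windows. The ratios of the other members with a window were also below that median. Myod1, the other member with a broad domain, had no window and is missing from this comparison. Over all genes the share with a promoter peak was 4.26% where the window held at most 1 CpG, 9.78% at 3 to 4, 21.7% at 8 to 11 and 22.6% at 33 or more. Myog and Actn3 fell in the band of 8 to 11 and, like most genes of that band, had no promoter peak. Ckm fell in that of 5 to 7 (17.0%) and had small promoter peaks. A link between CpG count and the mark among the members was not tested.

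Motif matches in the same windows were counted on both strands. The E-box (CANNTG) matched 3 times at Ckm, 2 times at Myog, 4 times at Mb, and once each at Acta1 and Myf6, with no match at Myf5 and Actn3. It was present in 69.1% of all windows. The CArG box, the site of serum response factor, matched once at Acta1 and at no other member (1.62% of all windows). A MEF2 site, searched only as YTAWWWWTAR (Y is C or T, W is A or T, R is A or G), matched once at Myf6 alone (2.89%). The Myog window holds ctatatttat, which differs from that pattern only in its last base, so looser sites were not counted. The letters TATAAA matched at Myf5, Myf6, Acta1 and Mb (13.1%). Overlap with other motifs was not removed, and a match is not shown to be bound.

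**Figure D4:**
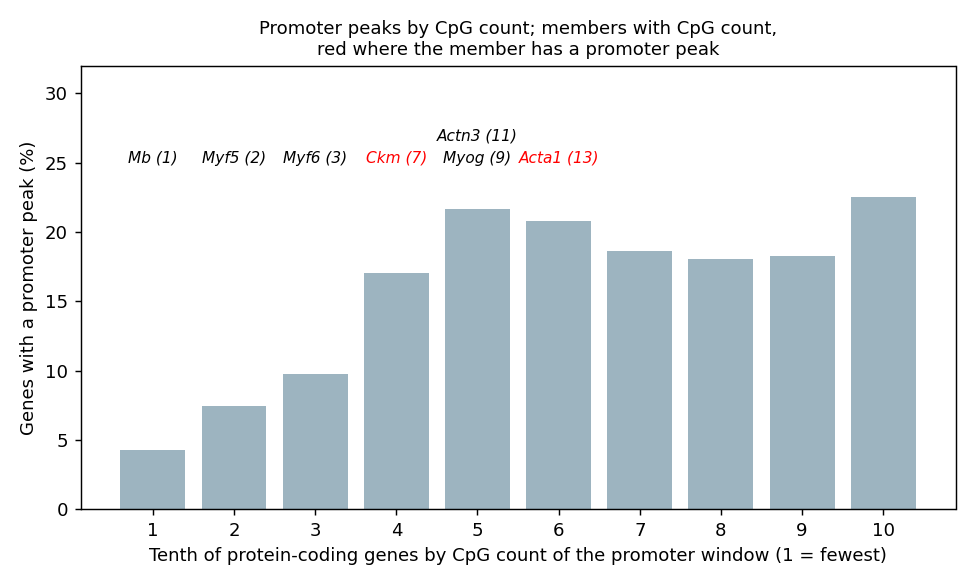
Share of protein-coding genes with a promoter peak (%) in 10 bands of the CpG count in the 300-base RefSeq window, where genes of equal count share a bar, so bars hold unequal numbers of genes. Each member with a window is written above its bar with its CpG count, in red if it has a promoter peak. The share rises from 4.26% in the first bar to 21.7% in the fifth and stays between 18.0 and 22.6% after it.

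Factors that act before the myogenic regulators often carried broad domains. For comparison, a promoter peak was found at 17.2% of all protein-coding genes and at 38.6% of those named by any peak. Of 14 upstream specification factors 11 had a promoter peak, with a median width of 13336 bp and a median score of 878.7, both above the values of Acta1. Only 3 of the 14 had a peak centred in the authors' promoter-TSS class. Among them were Pax3 (1471), which specifies muscle precursors, and Tcf21 (1124), a factor of head muscle and mesenchyme. Eya2 had its nearest edge at 4767 bp, and no peak named Eya1. Many of these factors also act in other organs. Of 16 partners and broadly used co-regulators 5 had a promoter peak, Twist1 (979.6), a mesenchymal inhibitor of myogenesis, Smarcd3 (41.3), Tcf4 (18.8), Mef2b (7.84) and Id3 (3.30). Mef2a, a paralog of Mef2c, had its nearest edge at 3791 bp, and no peak named Mef2d.

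Structural muscle genes beyond the members had smaller peaks than Acta1. A promoter peak was found at 43.5% of sarcomere genes and 22.2% of energy, calcium and membrane genes. For surface, fusion and neuromuscular junction genes the share was 40.0%. It was 17.2% of all protein-coding genes and 38.6% of those named by any peak. Of 23 skeletal sarcomere genes 10 had a promoter peak, with a median width of 1321 bp and a median score of 33.8. Actn2 (126.2), a paralog of Actn3 found in all striated muscle, Myl1 (120.5), a fast myosin light chain, Mybpc1 (102.7) and the intermediate filament gene Des (90.8) were highest. Myh4 and Myh8, myosin heavy chains, had their nearest edges at 1079 and 1348 bp, just beyond the limit. Of 18 energy, calcium and membrane genes 4 had one, Pvalb (171.6), a calcium buffer of fast fibres, Cacna1s (28.7), Scn4a (10.5) and Sln (9.69). Ckmt2, the mitochondrial partner of Ckm, had its nearest edge at 14029 bp, and no peak named Pygm. Of 15 surface, fusion and neuromuscular junction genes 6 had one, led by Ncam1 (105.4), Itga7 (68.7), Mstn (23.5) and Chrnb1 (15.9). Mymk, the fusion protein, had its nearest edge at 2563 bp, and no peak named Mymx.

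Genes of heart and smooth muscle were also divided. Of 14 cardiac genes, 12 contractile and 2 for natriuretic peptides, 4 had a promoter peak, Myh6 (49.3), Nppa (28.9), a secreted natriuretic peptide, Myl3 (7.22) and Myl2 (3.92), and none reached 2000 bp. Of 10 smooth muscle genes 5 had one, Cnn1 (192.7), Synpo2 (104), Des, Myocd (48.7) and Lmod1 (36.3). Of 11 relatives of the structural members 5 had one. Ckmt1 (187.3), a mitochondrial creatine kinase, and Actn1 (165.4), a non-muscle alpha-actinin, had promoter peaks with higher scores than any peak of their muscle relatives Ckm (35.1) and Actn3 (14.6). Ngb (61.1) and Cygb (26.0), globin genes related to Mb, also had promoter peaks, whereas Mb had none. The brain creatine kinase gene Ckb had a promoter peak of 150 bp with a score of 3.30, below that of Ckm (8.46), and no peak named the alpha-actinin gene Actn4. Of 20 housekeeping genes 1 had a small one, Chmp2a (4.54). The list holds no RNA, so the tissue label cannot be checked by expression. Of 15 Schwann cell genes 7 had a promoter peak, of which 5 were at least 2000 bp wide, led by Fa2h (122.7), Erbb3 (117.2), Mbp (77.4) and Egr2 (72.6). Pmp22 had its nearest edge at 2968 bp.

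**Figure D5:**
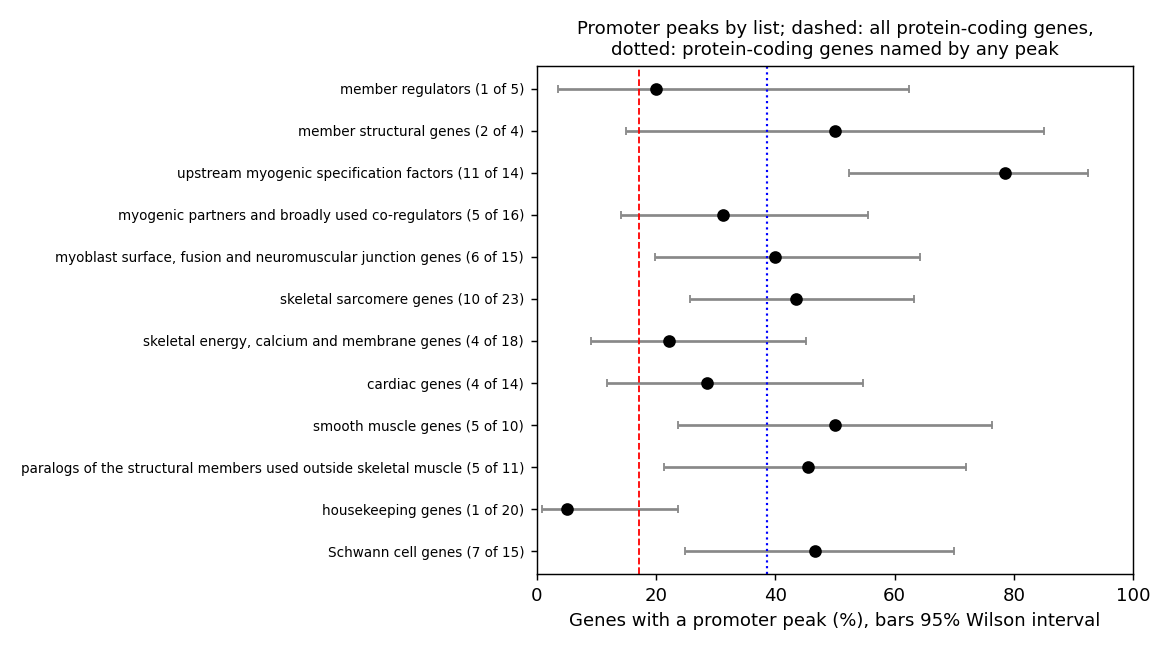
Share of each gene list with a promoter peak (%), with 95% Wilson intervals that cover counting alone, and the counts in brackets. The dashed line is the share over all protein-coding genes (17.2%) and the dotted line that over protein-coding genes named by any peak (38.6%). The upstream specification factors (11 of 14) have the highest share and the housekeeping genes (1 of 20) the lowest.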

How the data were processed

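Per the labels' protocols, chromatin of sham-side sciatic nerve was digested with micrococcal nuclease, precipitated with an H3K27me3 antibody and sequenced beside input. The submitters' processing notes name CASAVA 1.8.2, Bowtie and HOMER. Per the file headers, 1 combined H3K27me3 peak list was annotated with HOMER against rn5. How peaks were called and replicates merged is not given in the sources used here. Values deposited by the authors are a score per peak without a scale, widths, coordinates and distances to the nearest TSS in bp. Library depth is unknown. Scores under 10 were whole multiples of 0.206271 within 0.005, and counting intervals treat a step as 1 tag.

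Genes were matched by identifier or symbol to a RefSeq table of GRCr8 (10577 of 10647 named genes), used for names and gene order. The rn5 TSS was recovered as the position that all peaks of a promoter share, in 9412 of 9509 promoters with 2 or more peaks (tolerance 1 bp). For promoters with 1 peak the strand came from the RefSeq sequence table, which gave the same strand as the recovered one in 91.2% of 7340 promoters, so such starts are less certain. Recovery was tested on simulated data. Distances to the nearest edge use peaks of any gene. Sequences are RefSeq windows on GRCr8.

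The members, lists and alternatives were chosen with earlier results of these data known. The text names all members, the 4 highest-scoring genes of each list, up to 2 without a promoter peak, and neighbours that share or flank peaks. Lists of 5 or fewer marked genes are named whole, Id3, Lmod1 and Ckb among them. Actn4 was chosen after its value was seen. Some genes that the rule takes are not reported here. Mylpf had no table entry and was left out. No test was run, because the list has no value per library. Analyses used Python 3.11.15, pandas 2.3.3 and scipy 1.17.1.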

Additional observations from a re-analysis of the deposited data

How the results depend on the processing

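Myod1 and Acta1 kept a promoter peak under each reach, score and width limit tried, but neither peak is centred in the authors' promoter-TSS class, where the regulators had 0 and the structural genes 1 (Ckm). Only 1 structural gene, Acta1, counted where the TSS had to lie inside the peak, or the peak had to score 9.9 or more, or to measure at least 2000 bp. With a reach of 5000 bp, 3 of 5 regulators and 3 of 4 structural genes counted, as Myf5, Myf6 and Actn3 came in. Counting any peak at the recovered TSS, or only scores at or above the median, changed neither count. The share of all protein-coding genes was 6.15% with the TSS inside the peak, 27.7% with 5000 bp, 8.27% in the promoter-TSS class, 14.7% at or above the median score, 12.6% at 9.9 or more, 6.85% at 2000 bp or more, and 38.6% of genes named by any peak. Joining peaks within 1000 bp gave Myod1 8202 bp and Ckm 1885 bp. Joining within 5000 bp gave stretches of 29034 bp at Myod1 and 19989 bp at Ckm, while Acta1 had 9187 bp in both cases. The longer stretch at Myod1 took in peaks that name Kcnc1, with scores of up to 136.8, and that at Ckm took in peaks of Klc3. Of 70 counts for the other lists under these alternatives, 41 stayed within 1.5 times the main count, and the upstream specification factors fell from 11 to 3 in the promoter-TSS class. No paired analysis was possible because the list gives no value per replicate, and leaving out a replicate was not run for the same reason. Scores near the minimum of 1.86 rest on few steps, and depth per library is unknown.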
